A study of Homo sapiens with 30 samples.

Results

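The 10 genes described here encode the core enzymes and regulators of polyamine metabolism, and they were followed by RNA-Seq in human cells treated with Omomyc. The genes were chosen by name and found by Ensembl identifier among the 57992 genes of the deposited table, and all 10 were present. They are ODC1, AMD1, SRM and SMS for synthesis, SAT1, SMOX and PAOX for catabolism, and OAZ1, OAZ2 and AZIN1 for the control of ODC protein. Omomyc is a miniprotein made from the dimerization and DNA-binding region of Myc, and it competes with Myc for its partner Max and for DNA.

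RNA was sequenced from 30 libraries, with 3 replicates in each of 10 groups. HCT116, a colon carcinoma line labelled as having stabilized MYC, was left untreated or received Omomyc at 2 or 10 μM, with RNA taken after 6 or 24 h. Ramos, a Burkitt's lymphoma line labelled as carrying a MYC translocation, was left untreated or received 0.5 or 2.5 μM for the same times. The methods of the study give 2.5 μM for the lower dose in HCT116 cells, where the labels give 2 μM. The libraries titled 24 h carry a tag of 4 h, and the time in the titles is used. HCT116 cells received Omomyc with ProteoJuice, a protein transfection reagent, and the methods do not say whether untreated cells received it; nor do they describe the Ramos libraries. Each line had a single untreated group with no time point, so an effect of Omomyc and one of the reagent or of time in culture cannot be told apart. The labels do not say that replicates were separate cultures, so the p-values measure only the spread between these libraries, which may be technical.

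Polyamines are small positively charged molecules that bind nucleic acids and are needed for growth. Ornithine decarboxylase (ODC1) makes putrescine, and AMD1 makes the decarboxylated S-adenosylmethionine from which spermidine synthase (SRM) and spermine synthase (SMS) take the groups that lengthen it. SAT1 acetylates spermidine and spermine for export or for oxidation by PAOX, and SMOX oxidizes spermine directly. Antizymes (OAZ1 and OAZ2) bind ODC and send it to the proteasome, and the antizyme inhibitor (AZIN1) binds antizyme in place of ODC. ODC1 is among the best known direct targets of Myc, which binds E-box letters in DNA.

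Because Myc and Max bind the E-box CACGTG, the RefSeq promoter windows of the members were searched for it and for the related letters CACGCG on both strands. A window spans 250 bases before to 50 bases after a transcription start on GRCh38.p14, and 7 of the 10 genes had one. CACGTG was found in windows of ODC1 and SRM. CACGCG was found in the other window of ODC1, where a match on each strand, 209 and 207 bases before the start, overlap each other. Neither was found in the windows of AMD1, SMS, SAT1, OAZ1 or OAZ2. Among all 35116 windows, 7.26% held CACGTG and 11.4% held CACGCG. By gene, 8.8% of 27305 genes had a window with CACGTG and 13.5% had one with CACGCG. The stretches around CACGTG, in capitals, are shown with the 60 bases before the start of SAT1, the member that changed most. They lie at chr2:10448013-10448072 (minus strand, 29 bases before the start at the first base of the E-box), chr1:11060185-11060244 (minus strand, 199 bases before the start) and chrX:23783113-23783172 (plus strand).
ODC1: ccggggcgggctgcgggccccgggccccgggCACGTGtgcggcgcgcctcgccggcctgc
SRM: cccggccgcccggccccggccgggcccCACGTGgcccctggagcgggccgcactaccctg
SAT1: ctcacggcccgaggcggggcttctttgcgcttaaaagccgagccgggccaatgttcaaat
A second CACGTG began 6 bases after the same ODC1 start. These matches are letters in the reference sequence, and binding was not measured in the data used here.

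Values are RPKM, the reads of a gene divided by its length and by the size of the library. The number of reads is not given, so the depth behind each value is unknown and the precision rests on the 3 replicates. Summed over all genes, a library held between 593633 and 1051041 RPKM. The HCT116 library of 10 μM at 6 h, replicate 3, stood apart with the highest sum, of which its 10 most abundant genes held 54.2%, and values without it are given beside the results it moved. Epithelial markers summed to between 1473 and 2345 RPKM in HCT116 cells and to no more than 1.94 in Ramos cells, with CEACAM5 at 0 in every library. B-cell markers summed to between 1557 and 1714 RPKM in Ramos cells and to no more than 3.12 in HCT116 cells.

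In HCT116 cells, SAT1 fell to between 18.9% and 36.9% of its untreated mean in the 4 Omomyc groups, and PAOX, the oxidase that acts after it, fell in 3 of them. SRM rose in 3 groups and ODC1 in 3, by smaller amounts, and of these rises only that of SRM at 2 μM and 6 h was also called with libraries rescaled to an equal sum of RPKM. With libraries scaled by median ratios instead, all of these rises but that of ODC1 at 2 μM and 24 h stayed called. In Ramos cells ODC1 rose and SAT1 fell at 6 h with either dose, and PAOX rose rather than fell. Differences are given as log2 fold changes of RPKM + 0.5, which understate the change of genes with low values, and a gene was called at a Benjamini-Hochberg adjusted p under 0.05 over all genes tested with limma.

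The number of members called is read against the share of all tested genes called in the same comparison. Against untreated HCT116 cells, 4 of 10 members were called at 2 μM and 6 h, where 47.3% of all genes were called. At 10 μM and 6 h 4 of 10 were called against 30% of all genes, at 2 μM and 24 h 6 of 10 against 27.3%, and at 10 μM and 24 h 4 of 10 against 35.2%. In Ramos cells SMOX was below the filter and 9 members were tested. Of these, 4 were called at 0.5 μM and 6 h against 23.6% of all genes, and 4 at 2.5 μM and 6 h against 27.9%. At 24 h no member was called at 0.5 μM by limma, where 0.0146% of genes were called and 1 member had an unadjusted p under 0.05, and 2 were called at 2.5 μM against 4.61%. The share of members called was below that of all genes at 2 μM and 6 h in HCT116 cells and at 0.5 μM and 24 h in Ramos cells and above it in the other 6 comparisons, and these shares were not tested against each other. With libraries rescaled to an equal sum, the median over all genes moved from -0.12 to -0.42 at 2 μM and 6 h and from -0.11 to -0.56 at 10 μM and 6 h in HCT116 cells, and the share of calls that were higher at 2 μM and 6 h moved from 32.7% to 6.76%. Median-ratio scaling brought that median to 0.0015 and the share to 51.9%. The sizes of the changes of HCT116 members at 6 h are therefore relative to the scale used, though SAT1 and PAOX were called at both doses with either rescaling. Calls of members also appeared with other scales. With an equal sum, OAZ1 (-0.42, adjusted p = 0.0019) and AMD1 (-0.35, adjusted p = 0.0091) were called at 2 μM and 6 h, and AMD1 (-0.57, adjusted p = 0.0228), SMS (-0.60, adjusted p = 0.0179) and OAZ2 (-0.59, adjusted p = 0.025) at 10 μM and 6 h. With median ratios, SMS (0.24, adjusted p = 0.0269) and OAZ2 (0.25, adjusted p = 0.0286) were called at 2 μM and 6 h. In Ramos cells at 2.5 μM and 24 h, an equal sum moved the median over all genes from 0.05 to 0.24 and the genes called from 627 to 5362. AMD1 (0.30, adjusted p = 0.0139), SRM (0.40, adjusted p = 0.0369), SMS (0.27, adjusted p = 0.0168), OAZ1 (0.32, adjusted p = 0.0099) and AZIN1 (0.28, adjusted p = 0.0132) were then called there. The 4 comparisons of a line share its 3 untreated libraries, so they are not independent of each other. For a single gene the two-sided exact permutation test cannot go below p = 0.1 with 3 libraries against 3, and it gave 0.1 wherever the groups did not overlap.

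**Figure D1:**
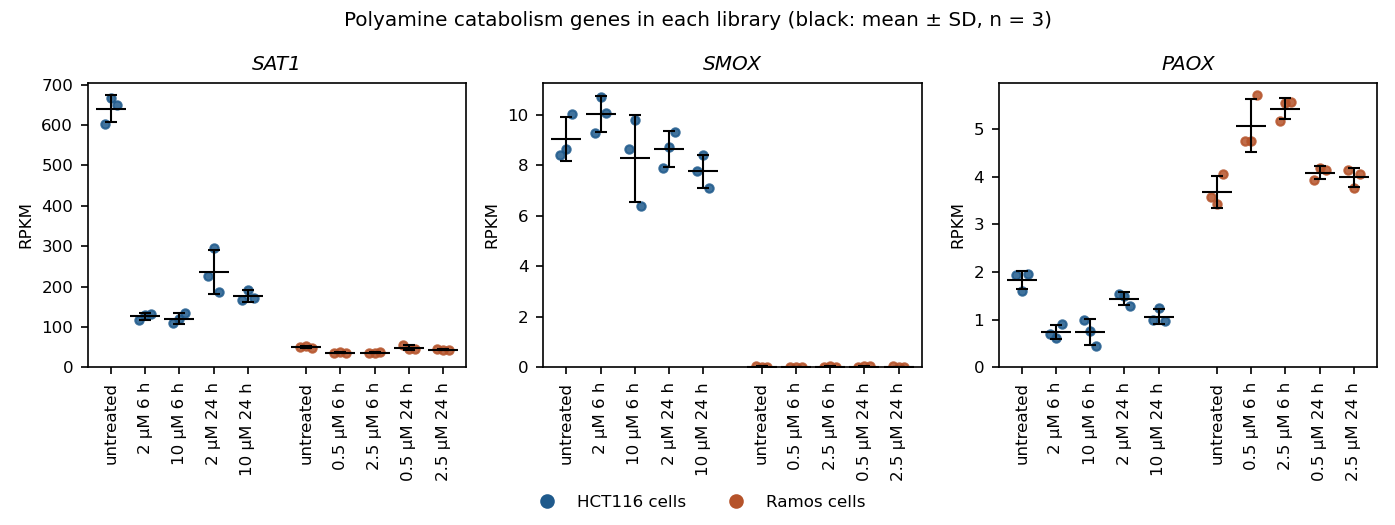
RPKM of the catabolism genes SAT1, SMOX and PAOX (vertical axes, from 0) in each of the 30 libraries, by group (horizontal axis), with HCT116 libraries in blue and Ramos libraries in orange; black bars are the mean ± SD of 3 libraries. SAT1 was between 603 and 667 RPKM in untreated HCT116 cells and no higher than 295 RPKM after Omomyc, and PAOX moved down in HCT116 cells and up in Ramos cells at 6 h.

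SAT1 encodes spermidine/spermine acetyltransferase, the rate-limiting enzyme of polyamine catabolism, and lies at chrX:23783173-23786226 on the plus strand (GRCh38). In untreated HCT116 cells its 3 values were 603, 667 and 650.2 RPKM. At 6 h they were 117, 129 and 131 RPKM with 2 μM Omomyc and 109, 119 and 134 RPKM with 10 μM. Every treated library was thus less than 1 in 4 of any untreated library, and both doses overlapped each other. At 24 h the values were 227, 295 and 186 RPKM with 2 μM and 166, 192 and 171 RPKM with 10 μM, above all the 6 h values and still below all the untreated ones.

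The log2 fold change of SAT1 against untreated HCT116 cells was -2.34 (SE 0.07, adjusted p = 3.01e-07) at 2 μM and -2.41 (SE 0.12, adjusted p = 0.000145) at 10 μM after 6 h. After 24 h it was -1.46 (SE 0.14, adjusted p = 0.000342) at 2 μM and -1.86 at 10 μM. The fall was therefore largest at the earlier time. The difference between times passed the test at both doses, with 24 h above 6 h by 0.88 (SE 0.14, adjusted p = 0.00198) at 2 μM and by 0.55 (SE 0.13, adjusted p = 0.0396) at 10 μM. The call at 10 μM was lost without any one of the 24 h libraries or of 6 h replicates 1 and 2 (adjusted p between 0.0703 and 0.172), and with median-ratio scaling (0.37, adjusted p = 0.182). It was kept with an equal sum (0.85, adjusted p = 0.0255). Without the 6 h library that stood apart the difference was 0.62 (adjusted p = 0.00248), and the fall at 6 h was then -2.48 (adjusted p = 1.03e-06). Doses did not differ by the test at either time, with 10 μM minus 2 μM at -0.06 (SE 0.13) at 6 h, or -0.14 (SE 0.10) without the library that stood apart, and -0.40 (SE 0.14, adjusted p = 0.337) at 24 h.

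In Ramos cells SAT1 started lower, at 51.1, 53.8 and 47.9 RPKM. It was 36.4, 37.8 and 35.2 RPKM after 6 h with 0.5 μM and 34.1, 36.3 and 37.9 RPKM with 2.5 μM, all below the untreated range. The log2 fold changes were -0.48 (SE 0.06, adjusted p = 0.000651) and -0.49 (SE 0.06, adjusted p = 0.000594). At 24 h the values were 55.0, 45.2 and 45.8 RPKM with 0.5 μM, which overlapped the untreated libraries, and 44.4, 42.0 and 43.0 RPKM with 2.5 μM, which did not. The fall at 2.5 μM and 24 h was -0.23 (SE 0.05, adjusted p = 0.0422). That call was lost when any one library other than untreated replicate 3 was left out (adjusted p between 0.0938 and 0.171), and it was -0.03 with libraries rescaled to an equal sum of RPKM. As in HCT116 cells, SAT1 at 24 h was above that at 6 h, by 0.41 (SE 0.07, adjusted p = 0.00376) at 0.5 μM and 0.26 (SE 0.05, adjusted p = 0.00473) at 2.5 μM.

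PAOX encodes the peroxisomal oxidase that acts on acetylated spermidine and spermine and lies on chromosome 10 (133379234 to 133391694). It was expressed at a low level, with 1.93, 1.61 and 1.96 RPKM in untreated HCT116 cells. At 6 h it was 0.700, 0.615 and 0.912 RPKM with 2 μM and 0.995, 0.762 and 0.451 RPKM with 10 μM, so that no treated library reached the lowest untreated one. The log2 fold changes were -0.91 (SE 0.15, adjusted p = 0.00132) and -0.94 (SE 0.20, adjusted p = 0.012). The latter was -0.76 without the library that stood apart and missed the threshold without untreated replicate 1 (adjusted p = 0.0572) or 3 (0.056). At 24 h PAOX had risen again with 2 μM, to 1.55, 1.49 and 1.29 RPKM, 0.65 above 6 h (SE 0.16, adjusted p = 0.0114) and -0.26 from untreated (adjusted p = 0.148). With 10 μM it was 0.982, 1.24 and 0.968 RPKM at 24 h, a fall of -0.58 (SE 0.14, adjusted p = 0.0104) that missed the threshold when genes with low values were not filtered out (adjusted p = 0.0512).

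The direction of PAOX was opposite in Ramos cells. Its untreated values of 3.57, 3.42 and 4.06 RPKM were below the 4.75, 4.74 and 5.71 RPKM with 0.5 μM and the 5.17, 5.55 and 5.56 RPKM with 2.5 μM at 6 h. The rises were 0.41 (SE 0.11, adjusted p = 0.0308) and 0.50 (SE 0.10, adjusted p = 0.00601). The former was lost without any one library except untreated replicate 3 (adjusted p between 0.053 and 0.122). At 24 h PAOX was 3.93, 4.18 and 4.15 RPKM with 0.5 μM and 4.14, 3.75 and 4.06 RPKM with 2.5 μM, overlapping the untreated range at both doses. The return from 6 h was called at 2.5 μM (-0.40, SE 0.08, adjusted p = 0.00793) and not at 0.5 μM (-0.28, adjusted p = 0.0753). PAOX overlaps the 3′ neighbour AL360181.3 on the same strand, whose RPKM did not exceed 0.931 in any library.

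SMOX, the spermine oxidase gene on chromosome 20 (4120980 to 4187747), was not called in any comparison with untreated cells in the deposited values. It had 8.40, 8.66 and 10.0 RPKM in untreated HCT116 cells, and all 15 HCT116 libraries lay between 6.39 and 10.7 RPKM. Its log2 fold changes in the 4 Omomyc groups ranged from -0.20 to 0.14, with adjusted p of 0.109 or more. At 10 μM and 6 h the change was -0.13, and 0.03 without the library that stood apart. With libraries rescaled to an equal sum SMOX was called at 10 μM and 24 h (-0.38, adjusted p = 0.0193). In Ramos cells it was listed at 0 in 9 of 15 libraries and at no more than 0.0581 RPKM in the others.

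**Figure D2:**
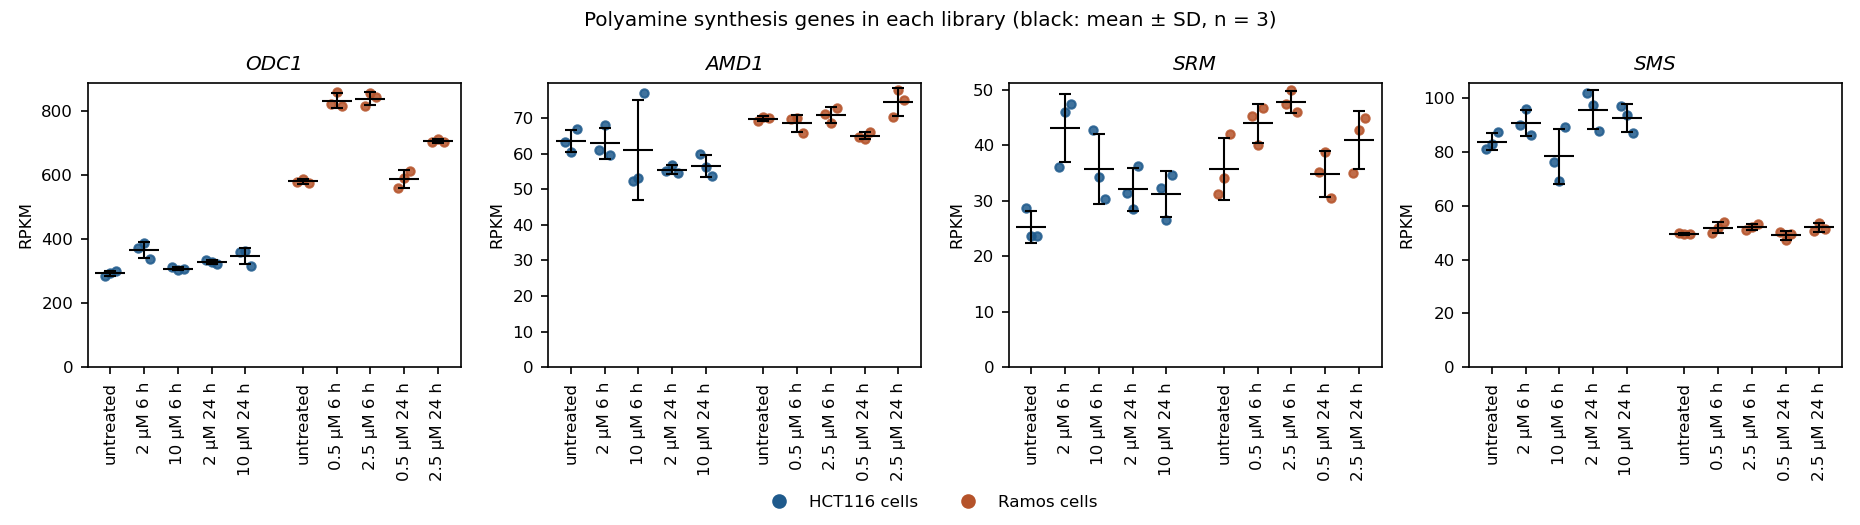
RPKM of the synthesis genes ODC1, AMD1, SRM and SMS (vertical axes, from 0) in each of the 30 libraries, by group (horizontal axis), with HCT116 libraries in blue and Ramos libraries in orange; black bars are the mean ± SD of 3 libraries. ODC1 in Ramos cells rose from no more than 589 RPKM to at least 817 RPKM at 6 h, while AMD1 and SMS stayed within narrower ranges.

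ODC1 (chr2:10439968-10448504, minus strand), which encodes the first enzyme of the pathway, was one of the most highly expressed members. Its Ramos values were 579.6, 589 and 575 RPKM untreated, 822, 861 and 817 RPKM after 6 h with 0.5 μM, and 817, 856 and 845 RPKM after 6 h with 2.5 μM. The 6 h groups lay far above the untreated one and overlapped each other. The rises were 0.52 (SE 0.05, adjusted p = 0.0002) and 0.53 (SE 0.04, adjusted p = 6.98e-05), or 1.43 and 1.44 times on the RPKM + 0.5 scale.

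By 24 h the doses had separated in Ramos cells. ODC1 was 559, 589.8 and 615 RPKM with 0.5 μM, around the untreated values, and 703, 713 and 705 RPKM with 2.5 μM, above them. The difference between the doses was 0.27 (SE 0.04, adjusted p = 0.0124). It was the only member called between doses, in a comparison where 4.25% of all genes were called. Leaving out 2.5 μM replicate 2 or 3 gave adjusted p of 0.0607 and 0.0678. The 24 h level at 2.5 μM was 0.28 above untreated (SE 0.04, adjusted p = 0.0075), with adjusted p of 0.0523 and 0.054 without the same replicates. From 6 to 24 h ODC1 fell by 0.50 (SE 0.05, adjusted p = 0.000172) at 0.5 μM and by 0.25 (SE 0.03, adjusted p = 0.000793) at 2.5 μM.

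In HCT116 cells ODC1 moved less. It was 284, 295 and 301 RPKM untreated, 372, 388 and 338 RPKM with 2 μM at 6 h, and 313, 305 and 307 RPKM with 10 μM at 6 h. At 24 h it was 334, 328 and 322 RPKM with 2 μM and 360.3, 363 and 318 RPKM with 10 μM. Every treated library was above every untreated one. The differences of 0.32 at 2 μM and 6 h (SE 0.07, adjusted p = 0.00571), 0.16 at 2 μM and 24 h (SE 0.04, adjusted p = 0.0247) and 0.24 at 10 μM and 24 h (SE 0.06, adjusted p = 0.016) were called, and 0.07 at 10 μM and 6 h (SE 0.10, adjusted p = 0.596) was not. These rises and their calls depended on the scale used. With rescaling to an equal sum they were -0.021, 0.0048, 0.05 and -0.42 in the same order, none of them called. With median ratios the rises at 2 μM and 6 h (0.45, adjusted p = 0.00255) and at 10 μM and 24 h (0.22, adjusted p = 0.0392) stayed called. That at 10 μM and 6 h was then 0.22 and not called (adjusted p = 0.148). The call at 2 μM and 24 h was also lost with median-ratio scaling (0.12, adjusted p = 0.104) and without any one library except 2 μM replicate 3 (adjusted p between 0.051 and 0.0934), and that at 10 μM and 24 h without 10 μM replicate 1 (0.0572) or untreated replicate 1 (0.0664). ODC1 hosts the small nucleolar RNA SNORA80B on the same strand, at no more than 21.3 RPKM.

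SRM (chr1:11054584-11060024, minus strand) makes spermidine, and it showed the largest rise of any member in HCT116 cells. Untreated HCT116 cells had 28.6, 23.7 and 23.6 RPKM, and cells treated for 6 h had 36.1, 46.0 and 47.4 RPKM with 2 μM and 42.7, 34.2 and 30.3 RPKM with 10 μM. No treated library overlapped the untreated ones at 6 h. The rise was 0.75 (SE 0.11, adjusted p = 0.000757) at 2 μM and was 0.42 (adjusted p = 0.00777) with equal library sums. At 10 μM it was 0.48 (SE 0.15, adjusted p = 0.0444) and became -0.0039 with that rescaling. With median ratios the rises were 0.88 (adjusted p = 0.000393) at 2 μM and 0.63 (adjusted p = 0.00921) at 10 μM. Without the library that stood apart the rise at 10 μM was 0.59 (adjusted p = 0.00364), and it missed the threshold without any other library (adjusted p between 0.0719 and 0.156).

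At 24 h SRM in HCT116 cells was 31.4, 28.5 and 36.2 RPKM with 2 μM and 32.2, 26.6 and 34.7 RPKM with 10 μM, and both groups overlapped the untreated one. The difference of 0.33 at 2 μM was called (SE 0.10, adjusted p = 0.0355), but not without 2 μM replicate 1 or 3 or untreated replicate 2 or 3 (adjusted p between 0.0747 and 0.12) or with equal library sums (0.18, adjusted p = 0.226). With median ratios that difference stayed called (0.30, adjusted p = 0.0404). That of 0.29 at 10 μM was not called (SE 0.10, adjusted p = 0.0549). SRM at 2 μM was lower at 24 h than at 6 h by -0.42 (SE 0.12, adjusted p = 0.0208), which was lost without 2 μM 24 h replicate 1 or 2 or 6 h replicate 2 or 3 (adjusted p between 0.0555 and 0.0761) and with equal library sums (-0.24). With median ratios this difference between times was -0.59 (adjusted p = 0.00638).

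In Ramos cells SRM was 31.2, 34.1 and 42.0 RPKM untreated, and 47.5, 49.9 and 45.9 RPKM after 6 h with 2.5 μM, a rise of 0.42 (SE 0.10, adjusted p = 0.0129). Without 2.5 μM replicate 2 the adjusted p was 0.0504. With 0.5 μM it was 45.2, 40.0 and 46.7 RPKM, which overlapped the untreated range (0.30, SE 0.10, adjusted p = 0.0658). That difference was called with an equal sum (0.40, adjusted p = 0.0264) and with the replicate number as a block (adjusted p = 0.0353). It was not called with median ratios (0.28, adjusted p = 0.0928). At 24 h SRM was 35.1, 38.7 and 30.5 RPKM with 0.5 μM and 35.1, 42.8 and 45.0 RPKM with 2.5 μM, neither called against untreated cells in the deposited values. The fall from 6 to 24 h was called at 0.5 μM (-0.34, SE 0.09, adjusted p = 0.0204). It was lost without 24 h replicate 3 or 6 h replicate 1 or 3 (adjusted p between 0.0527 and 0.0772).

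AMD1 and SMS, which act beside SRM, changed little in the deposited values. AMD1 lay between 52.4 and 77.1 RPKM in the HCT116 libraries and between 64.1 and 77.9 RPKM in the Ramos libraries. Its highest HCT116 value, 77.1 RPKM, came from the library that stood apart, while the other replicates of its group had 52.4 and 53.2 RPKM. The only AMD1 call against untreated cells was at 2 μM and 24 h in HCT116 cells, with 55.2, 56.9 and 54.4 RPKM against 63.3, 60.4 and 66.8 RPKM (-0.19, SE 0.05, adjusted p = 0.0215). It was lost without 2 μM replicate 1 (adjusted p = 0.0659) or untreated replicate 1 (0.0603) or 3 (0.0856). At 10 μM and 24 h the difference was -0.17 (adjusted p = 0.0506), and it was called with median ratios (-0.19, adjusted p = 0.0399) and with an equal sum (-0.35, adjusted p = 0.018). At 10 μM and 6 h the difference in the deposited values was -0.08, and it was called at -0.26 (adjusted p = 0.00809) without the library that stood apart.

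SMS lay between 69.2 and 102 RPKM in HCT116 cells and between 47.3 and 54.0 RPKM in Ramos cells. Against untreated cells of its line it was called once in the deposited values, at 2 μM and 24 h in HCT116 cells, with 102, 97.7 and 87.8 RPKM against 81.3, 82.9 and 87.6 RPKM (0.19, SE 0.06, adjusted p = 0.0473). The lowest treated library lay just above the highest untreated one. The call was lost without any one library except 2 μM replicate 3 (adjusted p between 0.0681 and 0.155), with median-ratio scaling (0.15, adjusted p = 0.13) and with rescaling to an equal sum (0.03). Without the library that stood apart, SMS at 10 μM and 6 h was called at -0.20 (adjusted p = 0.03).

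**Figure D3:**
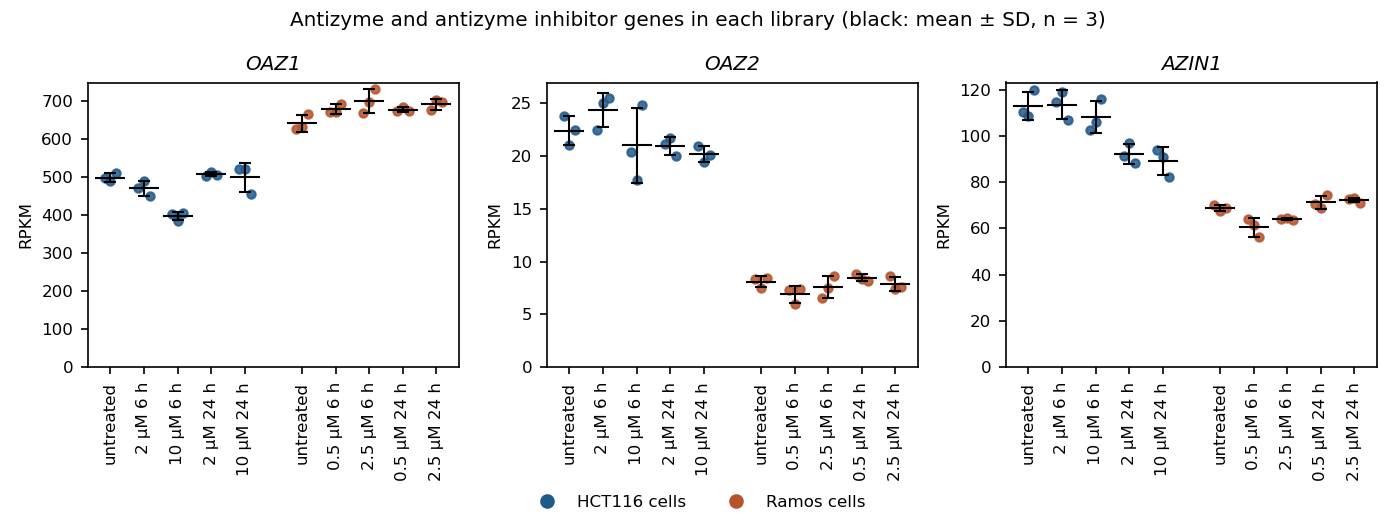
RPKM of the antizyme genes OAZ1 and OAZ2 and of the antizyme inhibitor gene AZIN1 (vertical axes, from 0) in each of the 30 libraries, by group (horizontal axis), with HCT116 libraries in blue and Ramos libraries in orange; black bars are the mean ± SD of 3 libraries. AZIN1 in HCT116 cells was between 82.2 and 97.0 RPKM at 24 h, below the untreated range of 108 to 119.8 RPKM.

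OAZ1 (chr19:2269509-2273490, plus strand) encodes the main antizyme, whose protein is made only when ribosomes shift frame in response to polyamines, a step that RNA levels do not show. It was abundant in both lines, between 384 and 522 RPKM in HCT116 cells and between 626 and 730.4 RPKM in Ramos cells. In the deposited values it was called against untreated cells only at 10 μM and 6 h in HCT116 cells, where 403, 384 and 405 RPKM lay below 496, 488 and 509.7 RPKM (-0.32, SE 0.10, adjusted p = 0.0448). Without the library that stood apart the fall was -0.34 (adjusted p = 0.00187). The call was lost without any other library (adjusted p between 0.0859 and 0.188) and with median-ratio scaling (-0.17, adjusted p = 0.282), and was kept with an equal sum (-0.82, adjusted p = 0.00626). In Ramos cells the differences of OAZ1 from untreated cells ranged from 0.08 to 0.12 and were not called. With an equal sum they were called at 2.5 μM, at 0.26 (adjusted p = 0.0174) at 6 h and 0.32 (adjusted p = 0.0099) at 24 h.

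OAZ2 encodes a second antizyme and was much lower, between 17.8 and 25.5 RPKM in HCT116 cells and between 5.97 and 8.85 RPKM in Ramos cells. In the deposited values it was not called in any comparison with untreated cells, where its log2 fold changes ranged from -0.22 to 0.12. With an equal sum OAZ2 was called in HCT116 cells at 10 μM, at -0.59 (adjusted p = 0.025) at 6 h and -0.33 (adjusted p = 0.0276) at 24 h. With median ratios it was called at 0.25 (adjusted p = 0.0286) at 2 μM and 6 h.

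AZIN1, the antizyme inhibitor gene on chromosome 8, fell in HCT116 cells at 24 h and was not called at 6 h. Its untreated values were 110.5, 108 and 119.8 RPKM, and at 6 h it was 115, 119 and 107 RPKM with 2 μM and 102, 106 and 116 RPKM with 10 μM, around the untreated values. Its log2 fold changes at 6 h were 0.0062 and -0.06, and became -0.33 and -0.56, both called, with rescaling to an equal sum, which put all genes at a median of -0.42 and -0.56. At 24 h it was 91.1, 97.0 and 88.3 RPKM with 2 μM and 94.0, 90.7 and 82.2 RPKM with 10 μM, below every untreated library. The differences were -0.29 (SE 0.05, adjusted p = 0.00575) and -0.34 (SE 0.06, adjusted p = 0.00279), and both kept their call under every alternative run. The difference between times was called at 2 μM (-0.30, SE 0.07, adjusted p = 0.0096, but -0.12 and not called when library sums were made equal) and not at 10 μM (-0.28, SE 0.11, adjusted p = 0.147). With median ratios it was -0.47 (adjusted p = 0.00257) at 2 μM and -0.46 (adjusted p = 0.0808) at 10 μM.

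In Ramos cells AZIN1 moved the other way in time. It was 70.0, 67.7 and 68.9 RPKM untreated and 64.0, 61.5 and 56.1 RPKM after 6 h with 0.5 μM, a fall of -0.19 (SE 0.06, adjusted p = 0.0401) that was lost without any one library except 0.5 μM replicate 1 (adjusted p between 0.0636 and 0.132) and when library sums were made equal (-0.09). With 2.5 μM it was 64.0, 64.6 and 63.5 RPKM at 6 h (-0.10, SE 0.04, adjusted p = 0.073). That difference was called with median ratios (-0.14, adjusted p = 0.0233) and was 0.034 and not called with an equal sum. At 24 h AZIN1 was 70.4, 69.0 and 74.3 RPKM with 0.5 μM and 72.7, 73.0 and 71.1 RPKM with 2.5 μM. It was thus higher at 24 h than at 6 h, by 0.23 (SE 0.06, adjusted p = 0.0153) and by 0.17 (SE 0.03, adjusted p = 0.00455). The former was lost without 24 h replicate 3 (adjusted p = 0.0518) or 6 h replicate 3 (0.0538) and when library sums were made equal (0.21, adjusted p = 0.118). The antisense RNA AZIN1-AS1 overlaps AZIN1 on the other strand, at no more than 2.21 RPKM in HCT116 cells and 7.07 RPKM in Ramos cells. The libraries were stranded, but how strand was counted is not given in the sources used here.

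**Figure D4:**
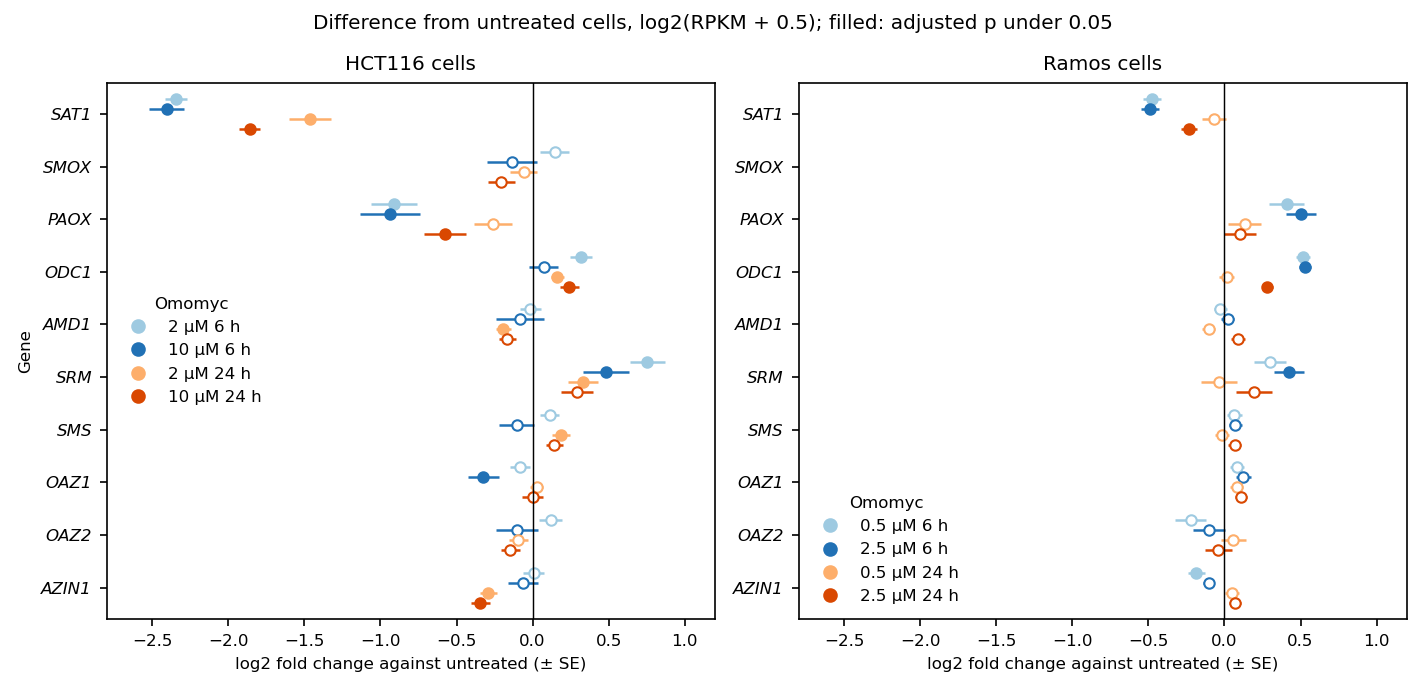
Log2 fold change of RPKM + 0.5 against untreated cells of the same line (horizontal axis, bars are SE) for each member (vertical axis) in the 4 Omomyc groups of HCT116 cells and of Ramos cells, with 3 libraries per group; filled points passed an adjusted p under 0.05 and open points did not, and SMOX was not tested in Ramos cells. SAT1 was at -1.46 or lower in HCT116 cells and no lower than -0.49 in Ramos cells, and PAOX lay on opposite sides of 0 in the 2 lines.

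Changes with time at a fixed dose do not use the untreated cells. In HCT116 cells 4 of 10 members were called between 24 and 6 h at 2 μM (SAT1 and PAOX higher, SRM and AZIN1 lower), where 40.8% of all genes were called, and 1 of 10, SAT1, at 10 μM, where 7.86% were. Without the library that stood apart, SMS (0.35, adjusted p = 0.0172) and OAZ1 (0.34, adjusted p = 0.0344) were called there too. In Ramos cells 4 of 9 were called at 0.5 μM (SAT1 and AZIN1 higher, ODC1 and SRM lower) against 25.4% of all genes, and 4 of 9 at 2.5 μM (SAT1 and AZIN1 higher, ODC1 and PAOX lower) against 23%. SAT1 was thus higher at 24 h than at 6 h in all 4 comparisons, while AZIN1 and PAOX were called in opposite directions in the 2 lines. Whether the changes with time differed between the lines was not tested.

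Between doses at a fixed time, limma called 0 of 10 members in HCT116 cells at 6 h, where 0% of all genes were called and 0 members had an unadjusted p under 0.05. At 24 h it called 0 of 10, where 0.18% of genes were called and SAT1 alone had an unadjusted p under 0.05. In Ramos cells it called 0 of 9 at 6 h, against 0.429% of all genes and 0 members with an unadjusted p under 0.05, and 1 of 9, ODC1, at 24 h. The log2 differences of members not called, higher minus lower dose, ranged from -0.28 to -0.02 in HCT116 cells at 6 h, where all 10 were lower with 10 μM and their median was -0.22 beside -0.02 over all genes, from -0.40 to 0.08 in HCT116 cells at 24 h and from -0.01 to 0.12 in Ramos cells at 6 h. Without the library that stood apart, the differences at 6 h in HCT116 cells were -0.25 for AMD1, -0.32 for SMS and 0.15 for PAOX (-0.07, -0.22 and -0.02 with it), and limma again called 0 of 10.

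Between untreated HCT116 and untreated Ramos cells 84.6% of all genes were called, and all 10 members were among them. The catabolic genes SAT1 (640.0 ± 33.0 against 50.9 ± 2.93 RPKM, mean ± SD, n = 3) and SMOX (9.03 ± 0.880 against 0.0189 ± 0.0327 RPKM) were higher in HCT116 cells, by 3.64 (SE 0.06, adjusted p = 3.53e-09) and 4.20 (adjusted p = 2.29e-08), whereas PAOX was lower (1.83 ± 0.195 against 3.69 ± 0.336 RPKM, -0.85). The size of the SMOX difference was set by the pseudocount, at 3.30 with a pseudocount of 1 and 6.29 with 0.1, since SMOX was listed at 0 in all untreated Ramos libraries but replicate 1. OAZ2 (1.41), SMS (0.75) and AZIN1 (0.71) were also higher in HCT116 cells. ODC1 was lower (293 ± 8.76 against 581 ± 7.15 RPKM, -0.99, SE 0.04, adjusted p = 2.35e-07), as were SRM (-0.49), OAZ1 (-0.36) and AMD1 (-0.14). With libraries rescaled to an equal sum the last 3 changed direction, to 0.083, 0.21 and 0.44. The AMD1 call was also lost without any one library except untreated HCT116 replicate 3 (adjusted p between 0.0508 and 0.0678). In untreated HCT116 cells the order by mean was SAT1, OAZ1, ODC1, AZIN1, SMS, AMD1, SRM, OAZ2, SMOX and PAOX, and neighbours in it did not overlap except SRM and OAZ2. In untreated Ramos cells it was OAZ1, ODC1, AMD1, AZIN1, SAT1, SMS, SRM, OAZ2, PAOX and SMOX, where AMD1 overlapped AZIN1 and SAT1 overlapped SMS.

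Whether the change of a member with treatment differed between the 2 lines was tested. The log2 fold change of Ramos cells was subtracted from that of HCT116 cells. HCT116 cells received Omomyc with ProteoJuice, and the methods do not describe the treatment of Ramos cells. A difference between the lines thus cannot be told apart from one of reagent, dose or time in culture. At 6 h, with 2 μM in HCT116 and 2.5 μM in Ramos cells, 4 of 10 members were called where 40.6% of all genes were. SAT1 differed by -1.85 (SE 0.09, adjusted p = 3.19e-07), PAOX by -1.42 (SE 0.15, adjusted p = 4.03e-05), ODC1 by -0.21 (SE 0.07, adjusted p = 0.038) and OAZ1 by -0.21 (SE 0.07, adjusted p = 0.0357). The median of all genes in this comparison was -0.14, close to the values of ODC1 and OAZ1. The 2 rescalings moved them in opposite ways. With an equal sum the median was -0.55, and ODC1 (-0.69, adjusted p = 8.22e-05) and OAZ1 (-0.69, adjusted p = 0.000198) stayed called. Median-ratio scaling brought the median to -0.02, and then ODC1 (-0.07, adjusted p = 0.532) and OAZ1 (-0.06, adjusted p = 0.542) were not called. SAT1 was then at -1.71 (adjusted p = 1.14e-06) and PAOX at -1.31 (adjusted p = 7.76e-05). Of the 12 libraries, leaving out any one of 8 also ended the call of ODC1 (adjusted p between 0.0534 and 0.0876), and the same was true of 8 for OAZ1 (between 0.0519 and 0.0911). They were 2 μM replicate 3, untreated HCT116 replicates 2 and 3, 2.5 μM replicates 2 and 3 and the 3 untreated Ramos libraries for ODC1, and 2 μM replicates 1 and 3, untreated HCT116 replicates 1 and 3, 2.5 μM replicates 2 and 3 and untreated Ramos replicates 1 and 2 for OAZ1.

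At 24 h, with 10 μM in HCT116 and 2.5 μM in Ramos cells, 4 of 10 members were called where 22.5% of all genes were. They were SAT1 (-1.62, SE 0.09, adjusted p = 1.72e-06), PAOX (-0.68, SE 0.14, adjusted p = 0.00602), AZIN1 (-0.41, SE 0.07, adjusted p = 0.00294) and AMD1 (-0.26, SE 0.08, adjusted p = 0.0309). The AMD1 call was lost without any one of 7 of the 12 libraries, which were 10 μM replicates 2 and 3, untreated HCT116 replicates 1 and 3, 2.5 μM replicates 2 and 3 and untreated Ramos replicate 1 (adjusted p between 0.0535 and 0.0754). SRM was not called at either time (0.33, SE 0.17, adjusted p = 0.151 at 6 h and 0.10, SE 0.19, adjusted p = 0.75 at 24 h, and -0.14 and -0.29 with equal library sums). The doses in this comparison were not equal.

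A further 25 genes that supply, extend or neighbour the pathway were listed by function, covering methionine supply and salvage, arginine and ornithine, hypusine formation, transport and paralogs, and between 16 and 19 of them passed the filter. Against untreated HCT116 cells 10 of 18 were called at 2 μM and 6 h (4 higher and 6 lower, beside 47.3% of all genes), 6 of 18 at 10 μM and 6 h (2 higher and 4 lower, beside 30%), 6 of 18 at 2 μM and 24 h (2 higher and 4 lower, beside 27.3%) and 8 of 18 at 10 μM and 24 h (5 higher and 3 lower, beside 35.2%). Their median log2 fold changes were -0.07, -0.23, 0.07 and 0.04, beside -0.12, -0.11, 0.04 and 0.02 over all genes. In Ramos cells 4 of 16 were called at 0.5 μM and 6 h (all higher, beside 23.6% of all genes) and 7 of 16 at 2.5 μM and 6 h (6 higher and 1 lower, beside 27.9%), with medians of 0.14 and 0.15 beside 0.02 and 0.03 over all genes. At 24 h limma called 0 of 17 with 0.5 μM, beside 0.0146% of all genes, with 0 at an unadjusted p under 0.05. With 2.5 μM it called 0 of 16, beside 4.61% of all genes, with 5 at an unadjusted p under 0.05.

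None of these genes was called with a log2 fold change of 1 or more in either direction against untreated cells. AZIN2, the paralog of AZIN1, was higher at 24 h than at 6 h with 2 μM in HCT116 cells (3.28 ± 0.219 against 1.32 ± 0.453 RPKM, 1.08, SE 0.19, adjusted p = 0.00258). MRI1, an isomerase of methionine salvage, differed between the lines at 6 h by -1.14 (SE 0.13, adjusted p = 7.15e-05), with a fall of -0.60 in HCT116 cells and a rise of 0.54 in Ramos cells. Before treatment, SAT2, the paralog of SAT1, had 15.8 ± 0.687 RPKM in HCT116 cells and was listed at 0 in all 3 untreated Ramos libraries. SLC18B1, a vesicular polyamine transporter, had 12.6 ± 0.523 RPKM in HCT116 and 0.508 ± 0.0701 RPKM in Ramos cells, and AGMAT, an agmatinase homolog, had 0.00683 ± 0.0118 and 5.26 ± 0.338 RPKM.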

How the data were processed

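The authors deposited 1 table of RPKM for 57992 genes in 30 libraries, prepared with a stranded, rRNA-depleted total RNA kit. RSEM is named in the submitters' processing notes, and the aligner, genome build and annotation are not given in the sources used here. RPKM keeps no read numbers, so a count model was not used and counting error is unknown. Symbols and positions came from GENCODE release 29 (GRCh38) for 57388 genes, and promoters from RefSeq (GRCh38.p14).

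Log2(RPKM + 0.5) was analyzed with limma 3.58.1 (lmFit, eBayes with trend) in R 4.3.3, keeping those genes whose RPKM averaged 0.5 or more over the compared libraries, with Benjamini-Hochberg adjustment over all genes tested. There were 19 comparisons: 8 with untreated cells, 4 between times, 4 between doses, 1 between untreated lines and 2 of line by treatment. The fit was tested on simulated data for HCT116 cells at 10 μM and 24 h: of 200 genes given a log2 change of 1 among 14827, 190 (95%) were called, with 4 false calls. For line by treatment at 24 h, 179 of 200 (89.5%) among 15674 were called, with 10 false calls. The changed genes were drawn only above a floor of expression, and PAOX in HCT116 cells lay below it. Smaller changes and shifts of scale between libraries were not simulated, so these shares do not cover them. Correlations within replicate pairs of a group on the log2 scale were 0.973 to 0.996, and 0 pairs were identical.

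All 10 members were to be named in each comparison, and pathway genes if called with an absolute log2 change of at least 1 and a mean RPKM of at least 2, at most 3 per comparison. The members and lists were chosen with earlier results of these data known. The alternatives tried were pseudocounts of 0.1 and 1, omitting the filter or raising it to 2 RPKM, scaling by median ratios or to an equal sum, the replicate number as a block, the 5 groups of a line in one fit, and leaving out each library.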

Additional observations from a re-analysis of the deposited data

Results flagged for a closer look

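The following differences between cell lines or between times passed a test of the difference itself. All are log2 differences from limma with an adjusted p under 0.05, and their errors stand with the comparisons.

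The log2 fold change with Omomyc of HCT116 cells less that of Ramos cells was flagged at 6 h for SAT1 (-1.85), PAOX (-1.42), ODC1 (-0.21) and OAZ1 (-0.21). The last 2 were -0.07 and -0.06 and not called with median-ratio scaling, and both were -0.69 and called with an equal sum. Each lost its call without any one of 8 of the 12 libraries. At 24 h it was flagged for SAT1 (-1.62), PAOX (-0.68), AZIN1 (-0.41) and AMD1 (-0.26). AMD1 lost its call without any one of 7 of the 12 libraries. PAOX is the member whose calls at 6 h had opposite signs in the 2 lines.

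Levels at 24 h minus levels at 6 h in HCT116 cells were flagged at 2 μM for SAT1 (0.88), PAOX (0.65), SRM (-0.42) and AZIN1 (-0.30), and at 10 μM for SAT1 (0.55). In Ramos cells they were flagged at 0.5 μM for SAT1 (0.41), AZIN1 (0.23), SRM (-0.34) and ODC1 (-0.50), and at 2.5 μM for SAT1 (0.26), AZIN1 (0.17), ODC1 (-0.25) and PAOX (-0.40).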

How the results depend on the processing

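Of 60 called differences of members, all 60 kept direction and call with a pseudocount of 0.1 or 1, and 56 of 56 with genes averaging at least 2 RPKM. Without a filter 20 of 60 lost their call. They were SRM and OAZ1 at 10 μM and 6 h, ODC1, AMD1, SRM and SMS at 2 μM and 24 h, and ODC1 and PAOX at 10 μM and 24 h in HCT116 cells, PAOX and AZIN1 at 0.5 μM and 6 h, SRM at 2.5 μM and 6 h and SAT1 at 2.5 μM and 24 h in Ramos cells, SRM at 2 μM, SAT1 at 10 μM and SRM and AZIN1 at 0.5 μM between times, ODC1 in Ramos cells at 24 h between doses, and ODC1 and OAZ1 at 6 h and AMD1 at 24 h between lines. Calls were lost with median-ratio scaling for 7 of 60, and with the 5 groups of each line fitted together for 4 of 42. With an equal sum of RPKM 9 lost their call and 5 changed direction: ODC1 at 2 μM and 6 h (-0.021) and SRM at 10 μM and 6 h (-0.0039) in HCT116 cells, and AMD1 (0.44), SRM (0.083) and OAZ1 (0.21) between the untreated lines. Leaving out 1 library ended 93 of 408 calls and reversed 0. The cause was not tested. Of 122 values not called, 29 were called and 34 changed sign with an equal sum, and 9 were called and 19 changed sign with median ratios. Among those printed, an equal sum changed the sign in HCT116 cells of SMS (-0.22), SMOX (-0.18), OAZ2 (-0.21) and AZIN1 (-0.33) at 2 μM and 6 h, ODC1 at 10 μM and 6 h (-0.42) and AZIN1 between times at 10 μM (0.025), in Ramos cells of AZIN1 at 2.5 μM and 6 h (0.034) and SAT1 between doses at 6 h (0.030), and of SRM between lines at 6 h (-0.14) and 24 h (-0.29). Median ratios changed that of AMD1 (0.12) and OAZ1 (0.049) at 2 μM and 6 h and of AMD1 (0.067), SMS (0.044), SMOX (0.0062), OAZ2 (0.045) and AZIN1 (0.086) at 10 μM and 6 h in HCT116 cells. With 1 library left out, ranges that crossed 0 were those of AMD1 (-0.071 to 0.022) and AZIN1 (-0.030 to 0.050) at 2 μM and 6 h, of AMD1 (-0.26 to 0.013), OAZ2 (-0.23 to 0.0094) and SMOX (-0.26 to 0.030) at 10 μM and 6 h, of AMD1 (-0.25 to 0.028), SAT1 (-0.14 to 0.011) and PAOX (-0.17 to 0.15) between doses at 6 h in HCT116 cells, of SAT1 between doses at 6 h in Ramos cells (-0.050 to 0.025), and of SRM between lines at 24 h (-0.023 to 0.21). The replicate numbers did not pair the libraries (r of their deviations from -0.303 to 0.184, with 0 of 16 comparisons having every pair over 0.1), and the replicate block ended 9 of 60 calls and reversed 0.

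Counts of members called moved as follows. Against untreated HCT116 cells, the 4 at 10 μM and 6 h became 2 without a filter, 7 with an equal sum and 1 to 6 with 1 library left out. The 6 at 2 μM and 24 h became 2 without a filter, 3 with an equal sum, 3 with the replicate block, 2 in the fit of 5 groups and 2 to 5 with 1 library left out. The 4 at 10 μM and 24 h became 2 without a filter and 6 with an equal sum. In Ramos cells the 4 at 0.5 μM and 6 h became 2 without a filter and 2 to 4 with 1 library left out. The 2 at 2.5 μM and 24 h became 1 without a filter, 6 with an equal sum, 1 with the replicate block and 0 to 2 with 1 library left out. Between times, the 4 at 2 μM became 8 with median-ratio scaling. The 1 at 10 μM became 0 without a filter, with median-ratio scaling or with the replicate block, 3 in the fit of 5 groups and 0 to 3 with 1 library left out. The 4 at 0.5 μM became 2 without a filter and 2 to 4 with 1 library left out. Between doses, the 1 in Ramos cells at 24 h became 0 without a filter, 2 with a mean of at least 2 RPKM or in the fit of 5 groups, 4 with an equal sum and 0 to 2 with 1 library left out. Of the 4 that differed between lines at 6 h, 2 were called without a filter, 7 with an equal sum, 2 with the replicate block and 2 to 4 with 1 library left out. The 4 at 24 h became 7 with an equal sum. RPKM keeps no read numbers, so precision at low values such as those of PAOX rests on 3 libraries per group.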

Other observations

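The ratio of 2 genes within a library does not change when the library is rescaled. This ratio was computed after the values had been seen. ODC1 over SAT1 was between 0.442 and 0.470 in untreated HCT116 cells. It was between 2.58 and 3.19 with 2 μM and between 2.29 and 2.88 with 10 μM at 6 h, and between 1.11 and 1.73 and between 1.86 and 2.18 at 24 h. In Ramos cells its median was 11.3 untreated, 22.7 with 0.5 μM and 23.6 with 2.5 μM at 6 h, and 13.1 and 16.4 at 24 h, and the group of 0.5 μM at 24 h alone overlapped the untreated one. The ratio shows that the 2 genes changed unequally and not which of them changed.

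The ratio of ODC1 to OAZ1, the enzyme and its antizyme, was also higher after Omomyc in all HCT116 libraries, at 0.637 or more against 0.604 or less untreated. In Ramos cells it was between 0.864 and 0.934 untreated, at least 1.16 at 6 h with either dose, between 0.830 and 0.913 at 24 h with 0.5 μM, and between 1.01 and 1.04 with 2.5 μM.

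Among 11677 genes, those whose log2 values followed SAT1 most closely over the 15 HCT116 libraries were ABHD10 (Pearson r 0.987), DECR1 (0.979), the mitochondrial dienoyl-CoA reductase, and MAP3K1 (0.974), a kinase of the JNK pathway. Over the 15 Ramos libraries the same genes had r of 0.571, 0.765 and -0.390. For ODC1 they were NME1, a nucleoside diphosphate kinase (0.957 in HCT116, 0.125 in Ramos), PSMB4, a proteasome subunit (0.944, 0.532), and COPS3, a COP9 signalosome subunit (0.935, 0.872). These are descriptions over libraries of shared groups, which carry the differences between treated and untreated cells in common.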
